A study of Mus musculus with 6 samples.

Results

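The cytosolic ribosomal protein genes were compared between the livers of mice fed regular chow and of mice fed soy-enriched chow. Members were the genes of the array whose symbol is Rpl or Rps with a number, or Rpsa, Rplp0, Rplp1 or Rplp2, and that had a probe with an NM_ (RefSeq mRNA) accession. The Rps6k kinases and pseudogene symbols were left out. The rule found 88 of the 19946 genes with such a probe and a symbol, and each gene was read by its brightest probe. The members comprised 43 proteins of the large (60S) subunit, the 3 proteins of its stalk, 31 proteins of the small (40S) subunit and 11 paralogs or other genes that share the symbols. The first 3 classes, 77 genes, are called core genes here.

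The control group was 3 male mice on 100% regular food, and the soy group was 3 male mice on 75% regular food with 25% soy bean powder. All 6 mice were 12 weeks old and were fed for 28 days, and the sources used here give no strain or genetic change. RNA of the right hepatic lobe of each mouse was hybridised to a separate 1-colour Agilent array, so n = 3 per group throughout and the mice are biological replicates. Values are normalized signals on the log2 scale, and a change is the soy mean minus the control mean, so that 0.585 stands for 1.5-fold. A probe was called at an adjusted p (Benjamini-Hochberg over 56605 probes) under 0.05 with a fold above 1.5 or under 0.66.

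Each ribosome carries a single copy of most of these proteins, and cells make them in matched amounts together with ribosomal RNA. Their mRNAs are among the most abundant of a cell. They start with a stretch of pyrimidines, the 5′ TOP element, through which mTORC1 and the RNA-binding protein Larp1 set how strongly they are translated. In the liver, ribosome content is known to fall during fasting and to return with feeding. An array measures the mRNA and says nothing of its translation.

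The arrays differed in how many spots were bright. Between 36366 and 38163 of 59305 spots were well above background on the control arrays, and between 31308 and 32498 on the soy arrays, without overlap. Slide 1 of the 3 slides held the arrays of soy 1, control 1 and control 2, slide 2 that of soy 2, and slide 3 those of soy 3 and control 3. The part of either difference in the results below was not tested beyond the within-slide values and the other normalizations. Of the 88 members, 84 were well above background on all 6 arrays. The exceptions were the probes of Rpl37, Rpl3l, Rpl10l and Rpl39l. The latter 3 genes are known from muscle or testis and were well above background on none of the arrays, and the probe of Rpl37, a large subunit protein, on 2 control arrays and on none of the soy arrays. The values of these 4 genes are not read as measured changes, although they stay in the counts over the 88. The 9 hepatocyte markers on the array (Alb, Ttr and Cps1 among them) were well above background on all 6 arrays.

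No ribosomal protein gene was called in either direction (0 of 88), against 0.350% of all probes (198 probes, 118 higher and 80 lower) and 0.516% of all genes. Among the 1406 genes whose mean signal was 14 or more, a range that holds 81 of the 88 members, 1.07% were called. At an unadjusted p under 0.05, 2 of the 88 members stood apart by their brightest probes, Rps27l and Rpl22l1, and neither is a core gene. The same unadjusted threshold was passed by 11.5% of all probes and by 15.0% of all genes, and by 21.4% of the bright genes. The smallest adjusted p (limma, Benjamini-Hochberg) of a member was 0.284, and of a core gene 0.589, again by brightest probe. In bulk liver, fewer cells of a type and less RNA per cell cannot be told apart.

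The changes of the members were small. Their median was 0.03, or from 0.0218 to 0.0466 (without control 2) with an array left out, their middle 50% lay between -0.01 and 0.08, and all lay between -0.33 and 0.27. The SD of the 88 changes was 0.086, against 0.318 over all genes and 0.401 over the 1406 bright genes. It was 0.115 over the 78 mitochondrial ribosomal proteins and 0.132 over 45 translation factors and was not tested against them. A change further from 0 than 0.2 occurred in 4 members (Rps27l, Rpl7l1, Rpl12 and Rpl22l1), which is 4.55%, against 29.5% of all probes, 34.3% of all genes and 35.1% of bright genes.

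**Figure D1:**
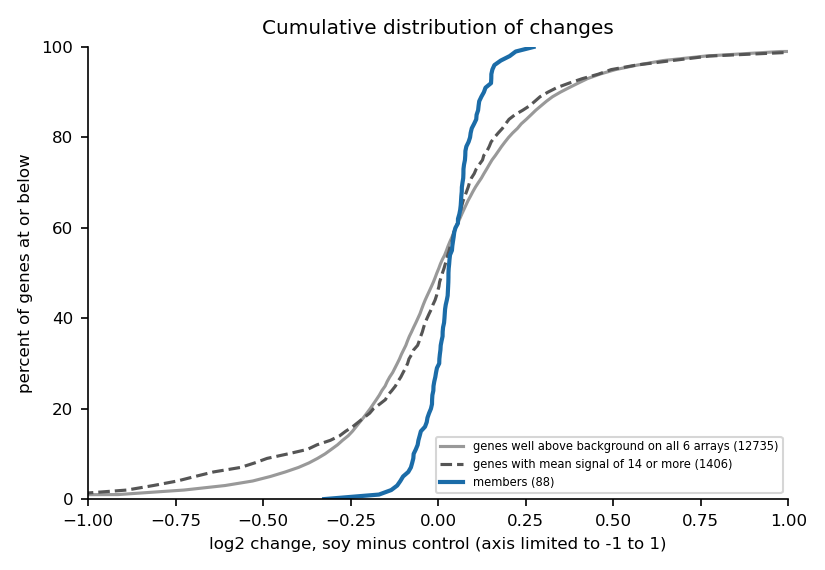
Cumulative percent of genes (vertical axis) at or below a given log2 change, soy minus control (horizontal axis, limited to -1 to 1), for the 88 members (blue), the 12735 genes well above background on all 6 arrays (grey) and the 1406 genes with a mean signal of 14 or more (dashed). The members' curve is the steepest and runs from -0.33 to 0.27.

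The precision of the arrays limits what these changes can exclude. The 95% confidence interval (limma, unadjusted) of each of the 84 members well above background throughout lay inside 1.5-fold in both directions. The same held for 68.2% of the genes and 70.2% of the probes measured that way, and for 70.5% of the bright genes. With dim probes included it held for 72.3% of all genes and 76.5% of all probes. The bounds of the 84 intervals lay between 0.676-fold, that of Rpl22l1, and 1.44-fold. Over all 151 probes of the members, further probes of a gene included, 148 intervals (98.0%) lay inside 1.5-fold. The bounds over these 151 probes lay between 0.588-fold and 2.38-fold. The intervals of the 4 dim genes also ended inside 1.5-fold but set no limit on their mRNA, and with the processed signal Rpl10l was at 0.61 and Rpl3l at 0.63. A change of a few percent in any single gene would not have been detectable. The median standard error of a member was 0.098 and the median SD between mice of a group was 0.077, against 0.158 over all genes and 0.139 over bright genes.

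**Figure D2:**
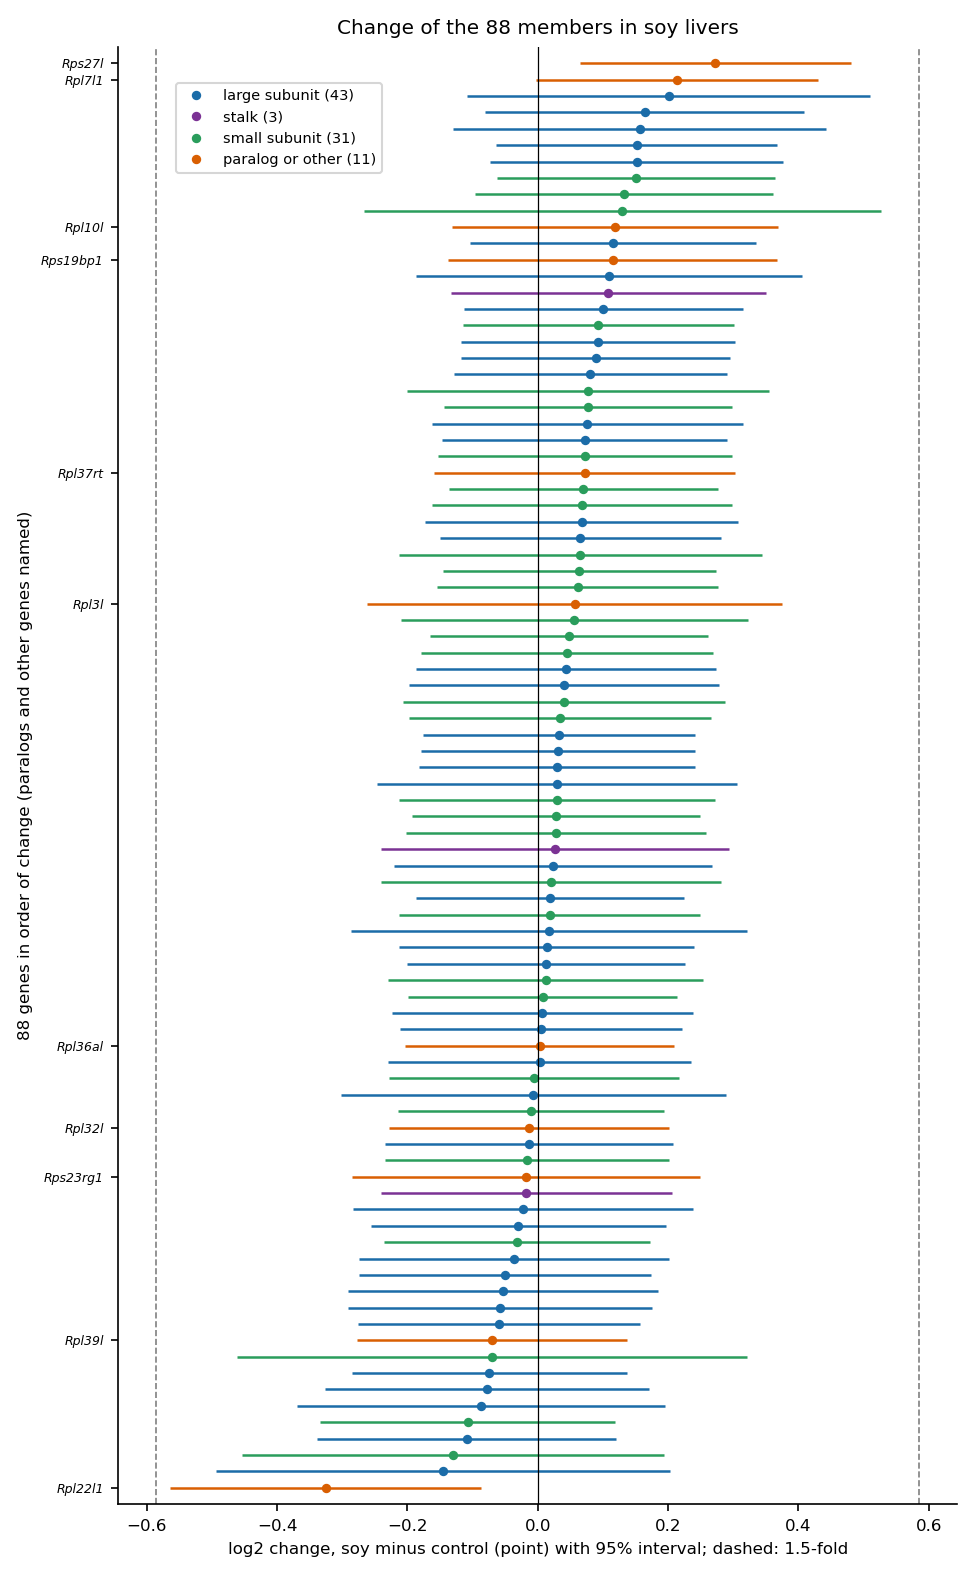
Log2 change of each of the 88 members in soy livers (points) with its 95% interval (lines), ordered by size and coloured by class, with the paralogs and other genes named and dashed lines at 1.5-fold. All 88 intervals end inside the dashed lines, those of the 4 dim genes included, and only those of Rps27l and Rpl22l1 lie wholly on 1 side of 0.

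The direction of the members as a group depended on the scaling between arrays. Of the 88 members, 62 (70.5%) were higher in soy livers and 26 lower after quantile normalization, whereas 46.6% were higher after a 75th-percentile shift, 59.1% with the processed signal and 60.2% after cyclic loess. Over all probes 47.6%, over all genes 48.7% and over the bright genes 53.4% had a change above 0 after quantile normalization. To see which mice carried the shift, the signal of each member was set against its own mean over the 6 arrays. The median deviation of the members was -0.035 in control 1, 0.012 in control 2 and -0.026 in control 3. It was -0.002 in soy 1, 0.029 in soy 2 and 0.021 in soy 3. Soy 1 thus lay below control 2, and the groups overlapped. The group means were -0.016 ± 0.025 (SD, n = 3) in control and 0.016 ± 0.016 (SD, n = 3) in soy livers. Within slides, the median difference was 0.003 on slide 1, where 46 of 88 members were higher in soy, and 0.05 on slide 3, where 53 were.

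**Figure D3:**
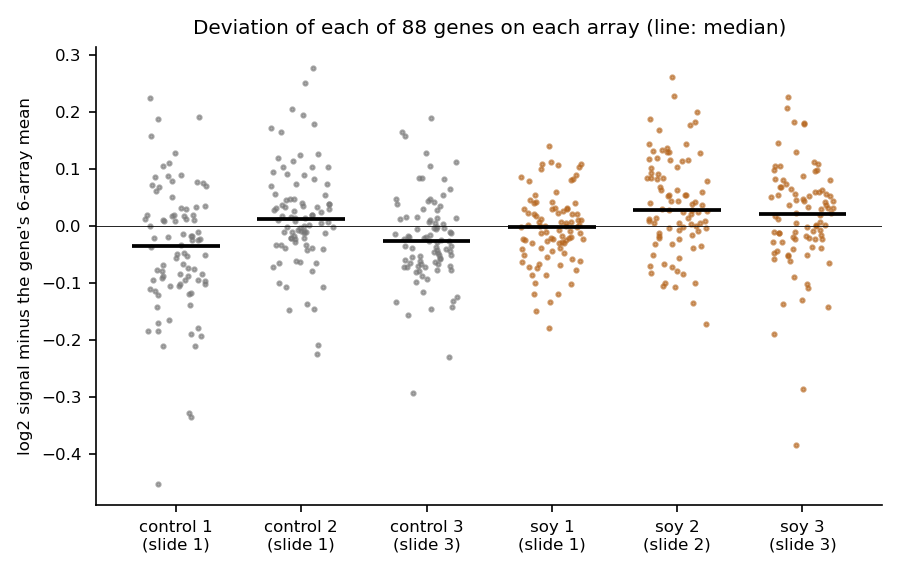
Log2 signal of each member minus that gene's mean over the 6 arrays (vertical axis, 1 point per gene), for the 3 control (grey) and 3 soy (brown) arrays with their slides, after quantile normalization; black lines are medians over the 88 members. The medians lie between -0.035 and 0.029, and the soy 1 median is below that of control 2.

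The 43 large subunit proteins had a median change of 0.02, with 29 higher and 14 lower, and the 31 small subunit proteins one of 0.04, with 24 higher and 7 lower. After the 75th-percentile shift the medians were -0.0126 and -0.00645, with 18 large and 15 small subunit genes higher, so that neither direction held. With an array left out, the large subunit median ran from 0.0173 (without soy 2) to 0.0426 (without soy 1) and that of the small subunit from 0.0285 (without control 1) to 0.0602 (without control 2). The subunits were not tested against each other. By their brightest probes, none of the genes of either subunit, nor of the stalk, was called or passed an unadjusted p of 0.05. The groups did not overlap for 13 members (14.8%), against 18.0% of all probes, 21.3% of all genes and 26.9% of the bright genes. Of these 13, 11 were higher in soy (7.75% of all probes) and 2 lower (10.3%), and 1 of the lower ones was the dim Rpl39l. The 9 core genes among them were Rpl8, Rpl9, Rpl23, Rpl23a, Rpl38, Rpl41, Rps9, Rps19 and Rps23. Their changes ran from 0.07 to 0.15, with adjusted p of 0.589 or more. The count of 13 fell to 6 after the 75th-percentile shift and to 5 with the processed signal.

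The stalk proteins bind the elongation factors during translation. Rplp0, which anchors the stalk and is a common reference gene in quantitative PCR, read 16.35, 16.20 and 16.30 in control and 16.26, 16.47 and 16.44 in soy livers. The groups overlapped (change 0.11 ± 0.10 SE, adjusted p = 0.741, limma), and the change was 0.0302 after the 75th-percentile shift and between 0.0672 and 0.173 with an array left out. Rplp1 changed by 0.03 and Rplp2 by -0.02, both with overlap between groups. The change of Rplp1 turned negative after the 75th-percentile shift, with the processed signal, after cyclic loess and with the slide as a block.

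Several core proteins have roles outside the ribosome or in signalling. Rps6, the target of the S6 kinases downstream of mTORC1, read 15.91, 15.81 and 15.75 in control and 15.86, 15.77 and 15.82 in soy livers, so that the soy values lay within the control range (change -0.01, SE 0.10). Rpl5 and Rpl11, which with 5S ribosomal RNA bind the p53 regulator Mdm2, changed by -0.03 and -0.06, with ranges of -0.0826 to -0.00215 and of -0.102 to -0.0124 where an array was left out. Rpsa, also known as a laminin receptor, changed by 0.05, and Rps27a, which is made as a fusion with ubiquitin, by 0.05, and they ran from 0.0229 to 0.0744 and from 0.0127 to 0.0866 with an array left out. All 5 had adjusted p of 0.868 or more. The sign of Rpsa turned after the 75th-percentile shift and cyclic loess, that of Rps6 with the slide as a block, and that of Rps27a with the mean of its probes.

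Among core genes read by brightest probe, the largest rise was that of Rpl12, a protein near the base of the stalk. It read 15.96, 16.38 and 16.22 in control and 16.40, 16.27 and 16.50 in soy livers (change 0.20, SE 0.13, adjusted p = 0.621). Control 1 was low and control 2 lay within the soy range. The other rises named by size were Rpl36a (0.16), Rpl14 (0.16) and Rpl38 (0.15). That of Rpl14 was 0.0276 with the processed signal, 0.0443 after the 75th-percentile shift and 0.0643 without soy 2, and with an array left out that of Rpl12 ran from 0.0874 to 0.30. The largest fall of a core gene by brightest probe was that of Rpl13a. This large subunit protein is also known to block translation of inflammatory mRNAs once phosphorylated. It read 16.01, 16.03 and 15.99 in control and 15.92, 16.13 and 15.55 in soy livers (change -0.15, SE 0.15, adjusted p = 0.761). Soy 3 was the lowest, soy 1 also lay below every control and soy 2 above every control. Without soy 3 the change was 0.01. Other falls named by size were those of Rps29 (-0.13), Rpl27a (-0.11) and Rpl36 (-0.08), each with overlap between groups. With an array left out, Rps29 ran from -0.27 to -0.0235 and Rpl36 from -0.16 to -0.0337.

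The spread between mice was wide in a few core genes. Rps25 read 16.33 in control 1 and between 16.49 and 16.91 on the others. Rps29 and Rpl35 were also lowest in control 1, whereas Rpl10a was highest there, at 17.13. These genes were picked after their values were seen, for their large SD within groups.

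Read by brightest probe, the members with the largest changes were paralogs, copies of a ribosomal protein gene that encode a similar protein. Dimmer second probes of the core genes Rps2 (-0.45) and Rpl41 (0.37) changed more, so this ranking depends on the choice of probe. Rps27l (NM_026467), a paralog of Rps27 known as a p53 target, read 16.02, 15.98 and 15.97 in control and 16.23, 16.24 and 16.31 in soy livers. All soy mice were above all control mice. The change was 0.27 (SE 0.089, 95% interval 0.06 to 0.48), with an unadjusted p of 0.0169 and an adjusted p of 0.302 (limma). A further probe of the gene changed by 0.21, also without overlap. Within slides the difference was 0.24 on slide 1 and 0.34 on slide 3.

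Rpl22l1 (NM_026517) is the paralog of Rpl22, whose protein is known to repress Rpl22l1. It read 14.94, 14.90 and 14.80 in control and 14.60, 14.64 and 14.43 in soy livers. All soy mice were below all control mice. The change was -0.33 (SE 0.10, 95% interval -0.56 to -0.09), with an unadjusted p of 0.0141 and an adjusted p of 0.284. Within slides the difference was -0.32 and -0.37. Rpl22 itself read 14.63, 14.73 and 14.68 in control and 14.68, 14.77 and 14.81 in soy livers, and the groups overlapped (change 0.07, adjusted p = 0.816).

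Rpl7l1 (NM_025433), a paralog of Rpl7, read 10.11, 10.08 and 10.17 in control and 10.31, 10.41 and 10.29 in soy livers, again without overlap (change 0.21, SE 0.093, adjusted p = 0.440). Both its unadjusted p, 0.0518, and its adjusted p missed the threshold. Rpl36al changed by less than 0.01. Of the other genes that share the symbols, Rps19bp1, which encodes a protein that binds Rps19 and is no ribosomal protein, changed by 0.11 with overlap. Rpl32l and Rpl37rt, which carry the names of Rpl32 and Rpl37, changed by -0.01 and 0.07, and the retrogene Rps23rg1 by -0.02. The probe of Rpl37rt was bright (mean 17.39 in control livers), whereas that of Rpl37 was dim (6.71). Whether a probe also reads the mRNA of a similar gene was not tested.

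Rps27l, Rpl22l1, Rpl7l1 and Rpl36al were then each compared with the gene they are named after on the same array, which removes any shift that both probes share. The dim Rpl3l, Rpl10l and Rpl39l were left out, as were Rpl32l and Rpl37rt. The size of such a difference on 1 array depends on the probes, so only its change between groups is read. For Rpl22l1 minus Rpl22 it was 0.31, 0.17 and 0.12 in control and -0.08, -0.13 and -0.38 in soy livers, a change of -0.40 without overlap. For Rps27l minus Rps27 it was -0.46, -0.46 and -0.42 in control and -0.17, -0.31 and -0.13 in soy livers, a change of 0.24 without overlap. Rpl7l1 minus Rpl7 changed by 0.15 without overlap, and Rpl36al minus Rpl36a by -0.16 with overlap. In the first 3 of these 4 pairs the exact permutation p (two-sided) was 0.1, the smallest that 3 against 3 arrays can give, and 0.133 after Benjamini-Hochberg adjustment over the 4 pairs. In the fourth both were 0.2. With 3 against 3 arrays this exact test cannot reach 0.05.

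**Figure D4:**
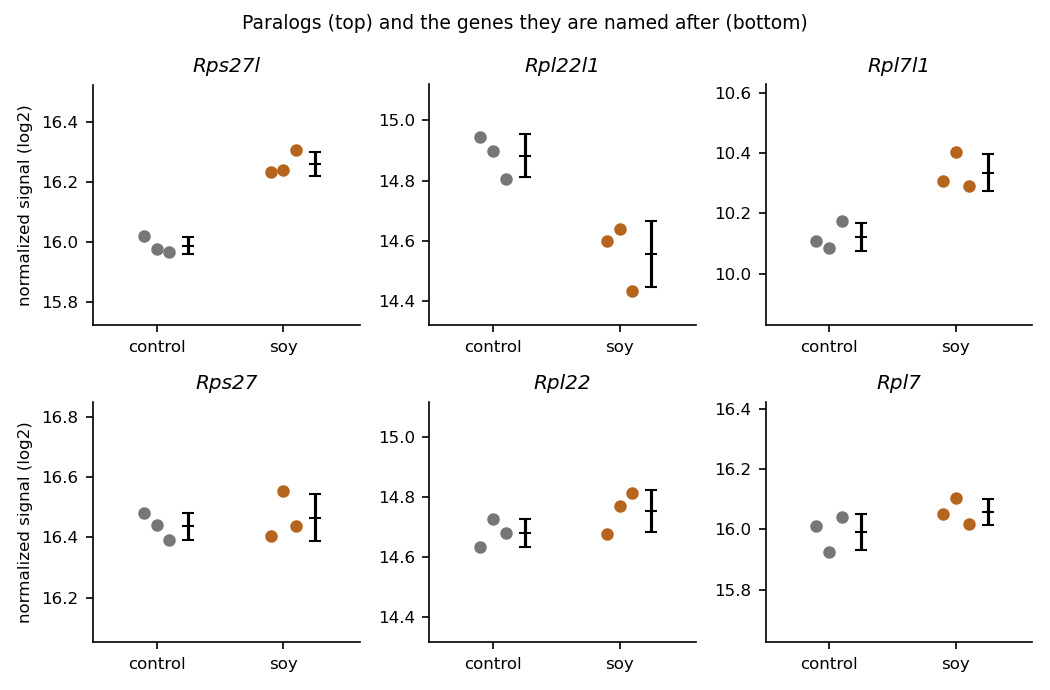
Normalized signal (log2, vertical axes of equal span) of 3 paralogs (top) and of the genes they are named after (bottom) in the 3 control (grey) and 3 soy (brown) livers, with the mean and SD (black) beside the points. Rps27l and Rpl7l1 are higher and Rpl22l1 lower in every soy liver, while the groups overlap for Rps27, Rpl22 and Rpl7.

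The annotated starts of some of these genes are printed to show where runs of pyrimidines lie around them. Each sequence runs from 40 bases before to 25 bases into the transcript as RefSeq places it on GRCm38.p6, at the start that the table lists as number 1 where a gene has several. It is read 5′ to 3′ along the gene, and capitals mark the longest run of C and T that begins within 25 bases of the start, or the first of several equal ones. Rps6 and Rpl12 stand for core genes, and Rps27l and Rpl22l1 are set beside Rps27 and Rpl22.
Rps6, chr4:86857343-86857407, minus strand: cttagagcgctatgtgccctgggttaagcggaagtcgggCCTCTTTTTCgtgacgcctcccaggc
Rpl12, chr2:32961672-32961736, plus strand: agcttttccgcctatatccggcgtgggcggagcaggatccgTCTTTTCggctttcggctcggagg
Rps27, chr3:90213624-90213688, minus strand: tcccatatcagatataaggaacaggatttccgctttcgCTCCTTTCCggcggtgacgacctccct
Rps27l, chr9:66946046-66946110, plus strand: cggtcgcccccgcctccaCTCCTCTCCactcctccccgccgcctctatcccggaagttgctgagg
Rpl22, chr4:152325686-152325750, plus strand: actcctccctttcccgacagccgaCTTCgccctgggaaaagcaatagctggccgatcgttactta
Rpl22l1, chr3:28805468-28805532, plus strand: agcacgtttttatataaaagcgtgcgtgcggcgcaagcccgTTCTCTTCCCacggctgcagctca
The run of 10 bases in Rps6 began 1 base before the annotated start, and that of 9 bases in Rps27 2 bases before it. In Rps27l 2 runs of 9 bases began 22 and 12 bases before the start, and in Rpl22 the longest runs in that span, 2 in number, had 4 bases, while a run of 14 bases lay outside it, from 39 bases before the start. Rpl22l1, the paralog that was lower in soy livers, had a run of 10 bases from base 2 of the transcript. Annotated starts can lie some bases off the true ones, so these positions are descriptions.

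Of the 88 members, 68 were in the RefSeq promoter table, with 80 starts. On the gene's strand, 45% of the member starts had a run of 8 or more pyrimidines within 25 bases of the start, against 19.7% of all 32851 starts in the table. CTTTCC lay in that span in 13.8% of member starts, against 2.46% of all starts. In windows of 250 bases before to 50 after the start, searched on both strands, CCGGAAG, the core to which ETS factors such as Gabpa bind, was present in 33.8% of member starts and 8.86% of all starts. AAGATGG, a core of the YY1 motif, was present in 15% and 6.34%, CTTTCC in 48.8% and 26.6%, CTTTTC in 23.8% and 21.8%, and TATAAA, the TATA box, in 10% and 13.6%. Matches of CCGGAAG can share bases with those of CTTTCC or AAGATGG. These shares describe the sequences and not the diets.

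The measurement of the members was also checked within arrays. The array prints 300 of its probes at 10 spots each, and 60 of them are probes of members. The brightest probe of 34 members was of this kind. On 1 array, the SD between the 10 spots of such a probe had a median of 0.106. Between mice of a group, the median SD was 0.065 for members read from 10 spots and 0.081 for the 50 well-measured members read from 1 spot.

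Several probes existed for 47 members, and in 29 of them all probes changed in the same direction. In none did probes of opposite sign both pass an unadjusted p of 0.05. Over all 151 probes of the members 0 were called, against 0.350% of all probes, and 4 passed an unadjusted p of 0.05 (2.65%, against 11.5% of all probes). Besides Rps27l and Rpl22l1 these were dimmer second probes of Rpl41 and Rps2, picked here after their values were seen. That of Rpl41 read 14.63, 14.84 and 14.88 in control and 15.09, 15.24 and 15.13 in soy livers (change 0.37, adjusted p = 0.246), and the brightest probe of the gene also lay higher in every soy mouse (change 0.15). That of Rps2 read 15.31, 15.21 and 15.29 in control and 14.63, 15.09 and 14.73 in soy livers (change -0.45, adjusted p = 0.261), whereas the brightest probe of the gene changed by 0.06. The probes of Rps2 therefore disagreed in sign, and the second probe of Rps23rg1 (0.46) differed from its brightest (-0.02).

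The rest of the translation machinery was read in the same way. Of the ribosomal proteins whose symbols the rule does not take in, Fau changed by 0.04 and Rack1 by 0.03, and both lay below 0 after the 75th-percentile shift. The 78 mitochondrial ribosomal proteins, which serve the separate ribosomes of mitochondria, had 0 called. At an unadjusted p under 0.05 there were 1.28%, against 15.0% of all genes. All 78 of their 95% intervals lay inside 1.5-fold, as did 72.3% of those of all genes. Their median change was -0.01, with 37 genes higher in soy. The median was 0.00574 where the slide was a block and ran from -0.0267 to 0.0222 with an array left out. Their largest changes were those of Mrps31 (-0.25) and Mrps27 (0.25).

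The ribosome assembly factors, which process ribosomal RNA and join it with the proteins, had changes with an SD of 0.232, against 0.318 over all genes. Of 77, none was called, 12 passed an unadjusted p of 0.05 (15.6%, against 15.0% of all genes and 20.1% of those well above background on all 6 arrays), and in 20 (26.0%) the groups did not overlap, against 21.3% of all genes, 25.6% of those well above background throughout and 18.0% of all probes, with 7 higher and 13 lower in soy. Their median change was -0.07 and stayed below 0 after each scaling and with the slide as a block (-0.07 to -0.05). With an array left out it ran from -0.0831 (without control 2) to -0.0401 (without control 3), and was -0.0404 without soy 2 and -0.0435 without soy 3. With the processed signal 1 of these genes was called lower, as were 2.14% of all probes. Heatr1, needed for transcription of ribosomal RNA genes by RNA polymerase I, read 12.27, 12.48 and 12.17 in control and 11.75, 11.83 and 11.77 in soy livers (change -0.53, adjusted p = 0.120). Rrp9, a protein of the U3 particle that processes ribosomal RNA, changed by -0.60 (adjusted p = 0.135). Pes1, which acts in maturation of the large subunit, changed by 0.42 and Taf1b, a subunit of the polymerase I selectivity factor, by 0.40, both without overlap.

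Among the 45 translation initiation and elongation factors 0 were called and 3 passed an unadjusted p of 0.05 (6.67%, against 15.0% of all genes). Their median change was 0.01, or -0.0051 after the 75th-percentile shift and from -0.0156 to 0.0161 with an array left out. Eif4a2, an RNA helicase of initiation, changed by -0.36 and Eef1e1, a protein of the tRNA synthetase complex, by -0.35, both lower in every soy mouse. Eef2, which moves the ribosome along the mRNA, changed by 0.14, and the largest rise of the list was 0.27. Among the 27 genes of the mTORC1 pathway 0 were called and 3 passed an unadjusted p of 0.05 (11.1%, against the same 15.0%). Their median was -0.02, or 0.00664 after the 75th-percentile shift and from -0.0331 to 0.00966 with an array left out. Eif4ebp3, an inhibitor of initiation, changed by -0.55 (adjusted p = 0.212) and Rps6kb1, the S6 kinase, by 0.26 (adjusted p = 0.355), both without overlap. Ddit4, an inhibitor of mTORC1 induced by stress and glucocorticoids, changed by -0.92 with overlap (adjusted p = 0.579).

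Of 9 factors known at ribosomal protein gene promoters, 0 were called. At an unadjusted p under 0.05 there were 3 (33.3%, against 15.0% of all genes). Myc read 9.35, 9.89 and 9.27 in control and 10.35, 10.37 and 11.32 in soy livers (change 1.18, SE 0.28, adjusted p = 0.165). Its partner Max read 12.23, 12.19 and 12.30 in control and 11.52, 11.57 and 11.73 in soy livers (change -0.64, SE 0.10, adjusted p = 0.0593). Neither gene overlapped between groups, and both adjusted p missed the threshold. With the processed signal, where 23.2% of all probes were called, both genes were called, and Max also once the dim probes had been left out of the fit. Sp1 changed by 0.31 and Yy1 by -0.22.

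**Figure D5:**
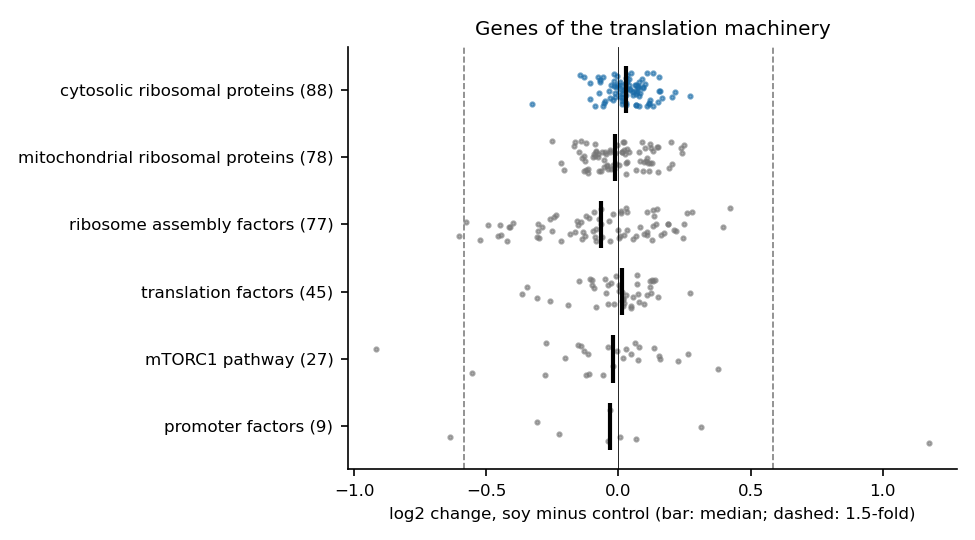
Log2 change, soy minus control (horizontal axis), of each gene (points) in 6 lists of the translation machinery, with the number of genes in parentheses, the median as a bar and dashed lines at 1.5-fold. All 88 cytosolic ribosomal proteins lie between -0.33 and 0.27, while assembly factors reach from -0.60 to 0.42.

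Markers of liver cell types were read beside the members, since a sample of the lobe holds several. Of the 11 lymphocyte markers 3, all of B cells, were called higher in soy livers, against 0.208% of all probes. Among them were Ms4a1 (0.93, adjusted p = 0.0394) and Cd79b (1.31, adjusted p = 0.0427). Cd79b read 7.41, 7.88 and 7.94 in control and 8.81, 9.31 and 9.03 in soy livers, and Ms4a1 was well above background on 2 of the 3 control arrays. Cd79a, also a B cell marker, was dim and changed by 0.02, and the T cell marker Cd3e by -0.11. The median change of the list was 0.26. None of the 11 was called with the slide as a block, or with any 1 of the 6 arrays left out, where fewer arrays are compared. After the 75th-percentile shift and after cyclic loess 3 were called, with list medians of 0.368 and 0.281, and with the processed signal 4 were, with a median of 0.50, against 21.1% of all probes called higher there. The median of the list was 0.216 with the block and from 0.192 to 0.331 with an array left out.

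Of the 9 hepatocyte markers 0 were called and 8 were lower in soy livers, with a median of -0.14, which ran from -0.205 (without soy 1) to -0.0409 (without soy 3). After the 75th-percentile shift 7 were lower, and 6 after cyclic loess or with the processed signal. Without control 3, 1 of them was called lower. With all arrays, 3 of the 9 passed an unadjusted p of 0.05 (33.3%, against 15.0% of all genes). Tat had the largest fall (-0.76), with overlap between groups. Ass1 (-0.55) and Cps1 (-0.47), enzymes of the urea cycle, were lower in every soy mouse, whereas Alb changed by -0.14 with overlap. With all arrays and quantile normalization none was called among the markers of Kupffer cells (median 0.11), endothelial cells (-0.06), stellate cells (-0.12), cholangiocytes (0.11), and red cells and neutrophils (0.33). An unadjusted p under 0.05 was reached by 3 stellate markers (30%), 1 cholangiocyte marker (12.5%) and 1 of red cells and neutrophils (11.1%). It was reached by 0 Kupffer cell and 0 endothelial markers, against 15.0% of all genes. Single arrays moved the medians of these lists. With an array left out, that of the Kupffer cell markers ran from -0.109 (without control 1) to 0.338 (without control 3), with -0.00865 without soy 3 and 0.244 without soy 1, and it was 0.0554 with the slide as a block. That of the endothelial markers ran from -0.139 (without soy 3) to 0.0235 (without soy 1), and that of the stellate markers from -0.188 (without soy 3) to -0.046 (without control 1). The cholangiocyte median ran from 0.0323 (without control 2) to 0.135 (without soy 2), and that of red cells and neutrophils from 0.131 (without control 2) to 0.537 (without soy 3). With the processed signal 1 marker of red cells and neutrophils was called higher, against the same 21.1% of all probes. The part of these shifts in the values of the ribosomal protein genes was not tested.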

How the data were processed

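The authors deposited the scanner output of 6 one-colour arrays (Feature Extraction 11.5.1.1 per the file headers), with a median intensity per spot and one for the local background around it, both uncorrected and unscaled, and a processed intensity. The authors also deposited log2 values of the same arrays with shared quantiles. The methods name the raw median signals, limma and Benjamini-Hochberg. Here the median intensities were corrected with normexp (offset 50), quantile normalized and log2 transformed, outlier spots were left out, spots of a probe averaged, and 56605 probes tested with limma 3.58.1 (R 4.3.3). The fit was tested on simulated data. Symbols came from RefSeq accessions (GRCm38.p6) for 29339 of 29638 NM_ probes. The number of arrays limits the precision.

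The members and lists were chosen with earlier results of these data known. Genes named were the 6 largest rises and falls, members with a known role outside protein synthesis or in the stalk, and paralogs or other genes that share the symbols. Of the 13 lists beside the members, the 3 largest changes each way and called genes could be named, and defining markers beside them. The alternatives tried were other background corrections and normalizations, the processed intensity, the deposited log2 values, filters, blocks, the mean of a gene's probes, and each array left out. The microRNA sequencing of the study was not used here. Some genes that these rules name are not reported here.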

Additional observations from a re-analysis of the deposited data

How the results depend on the processing

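No member was called in any of the 18 alternatives. Rps27l stayed between 0.19 and 0.28 and Rpl22l1 between -0.34 and -0.32 over the alternatives with all arrays, with adjusted p from 0.201 to 0.481 and from 0.154 to 0.417. Of all probes 77 were called with an offset of 16, 13138 with the processed signal, 299 after the 75th-percentile shift, 497 among well-measured probes only, 25 with the slide as a block, and between 25 and 203 with an array left out. The processed signal and the 75th-percentile shift moved the median of all probes to 0.13 in both cases, from -0.01. Over the probes well above background on all 6 arrays, the median was -0.0029 with the processed signal and 0.022 after the shift, from -0.0116. After the shift the members' median was -0.00756, 41 were higher and 6 did not overlap; with the processed signal 5 did not overlap. At an unadjusted p under 0.05 there was 1 member with the processed signal and 1 after cyclic loess, against 33.9% and 10.9% of all probes. There were 4 with the mean of a gene's probes, against 11.4% of all values tested there. They numbered from 0 (without soy 3) to 2 with an array left out, against 8.95% to 11.6% of all probes. With an array left out, 19 to 30 members did not overlap, since fewer arrays are compared. The replicate numbers did not pair the mice (correlations of 0.10, -0.05 and 0.10). With the replicate block 78 probes and 0 members were called.

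Of 28 named genes, 17 kept their sign throughout. The cause of the reversals was not tested. After the 75th-percentile shift Rplp1 was -0.0641, Rpsa -0.0418, Rpl36al -0.0213 and the dim Rpl39l 0.13. With the processed signal Rplp1 was -0.0127, Rpl36al -0.00672, Rpl39l 0.44 and Rps23rg1 0.00818. After cyclic loess Rplp1 was -0.0351 and Rpsa -0.0130. With the slide as a block Rplp1 was -0.00892 and Rps6 0.0322. With the mean of a gene's probes Rps27a was -0.00569 and Rps23rg1 0.22. In the deposited log2 values, which are rounded, Rpl36al was at 0 (-1.2e-15). With an array left out, the ranges were -0.28 to 0.0102 for Rpl13a, -0.0584 to 0.12 for Rplp1, -0.0663 to 0.0299 for Rplp2, -0.0428 to 0.0381 for Rps6, -0.0635 to 0.0726 for Rps23rg1, -0.0508 to 0.0201 for Rpl32l, -0.0121 to 0.0179 for Rpl36al and -0.0753 to 0.17 for the dim Rpl3l. The normexp fit on mean signals and the removal of saturated spots were not run, since the columns used here hold no mean signal and no spot was marked as saturated.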
